A study of Mus musculus with 2 samples.

Results

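The epidermal growth factor (EGF) family was followed in prostaspheres that express or lack Sox9. The members were 6 ligands (Egf, Tgfa, Areg, Ereg, Hbegf and Btc), 3 receptors (Egfr, Erbb2 and Erbb3) and the receptor inhibitor Errfi1. They form a list drawn up with earlier results of these data known, and their probes were found by gene name among the non-control spots of the arrays, which gave 23 of 41174 probes, 68 of 43379 spots on each array and 10 of 27827 gene names. Of these, 20 probes of 9 genes were bright enough in at least one class of RNA to be tested, as were 22731 probes of 15131 genes in all. Egf was the gene that could not be tested.

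Prostaspheres are spheres that grow from single prostate epithelial cells in Matrigel. Each of 2 Agilent 2-color arrays, both on 1 slide, compared a pair of the 4 RNAs. In the genotype comparison, wild-type prostaspheres treated with tamoxifen (TAM) were labeled with Cy5 and ER-Sox9flox/flox prostaspheres treated with TAM with Cy3. In the treatment comparison, ER-Sox9flox/flox prostaspheres given vehicle were labeled with Cy5 and ER-Sox9flox/flox prostaspheres given TAM with Cy3. The ER-Sox9flox/flox cells (ERCre+/+Sox9flox/flox) carry 2 floxed Sox9 alleles and a Cre recombinase from the Rosa26 locus that TAM activates, which is not limited to one cell type. In this design the vehicle-treated cells carry the transgene but not the drug, and the wild-type cells the drug but not the transgene. All mice were C57/Bl6J. According to the labels the cells came from epithelium of the embryonic urogenital sinus (16 dpc), with 6 days of growth before and 6 days of treatment, at 5 µM TAM, whereas the study's methods describe the sphere assay with adult prostate tissue. The genotype label reads Sox9 null for both RNAs of the treatment comparison, where treatment tells them apart, and the source names, which would turn every sign if read as the deleted gene, were not used. Every log2 ratio below is Sox9-expressing over Sox9-deleted RNA, so a value below 0 means more signal where Sox9 was deleted. No array had the dyes swapped, so dye and Sox9 status cannot be told apart in any ratio. No label says whether the 4 RNAs came from separate cultures, so the p-values measure the spread between 2 arrays, which may be technical. The 2 arrays also hold different comparisons, so this spread mixes any difference between the comparisons with the spread of repeats.

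EGF family ligands are made as membrane-anchored precursors, and proteases of the ADAM family release most of them from the cell surface. Released ligands bind the receptor tyrosine kinases Egfr and Erbb4, or with neuregulins Erbb3, which pair with one another or with Erbb2 and signal through Ras to Erk1/2 and through phosphoinositide 3-kinase. Erk1/2 in turn induces several of the ligands and inhibitors. Sox9 is a transcription factor of prostate buds and of progenitor cells in several epithelia.

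A few probes, one each for the ligand with the largest difference and for the 3 receptors, show what was measured. For the 3 receptors the printed probe is not the brightest one, from which the gene is read below. Each is a 60-base oligonucleotide, printed 5′ to 3′ as the files give it, with no base set in capitals, and placed on mouse genome mm9, the build named in the array annotation. The Areg probe lies at chr5:91570090-91570149, that of Egfr at chr11:16783545-16783604, that of Erbb2 at chr11:98295824-98295883 and that of Erbb3 at chr10:128009195-128009254, and the annotation assigns them to the transcripts NM_009704, NM_007912, NM_001003817 and NM_010153.
Areg, A_52_P482897: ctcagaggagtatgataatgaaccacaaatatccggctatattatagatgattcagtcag
Egfr, A_52_P56471: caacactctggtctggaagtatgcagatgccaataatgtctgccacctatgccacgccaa
Erbb2, A_51_P216179: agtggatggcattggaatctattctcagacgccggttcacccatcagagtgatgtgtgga
Erbb3, A_51_P342050: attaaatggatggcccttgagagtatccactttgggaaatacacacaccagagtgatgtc
Without gaps, the Erbb2 and Erbb3 probes matched at 35 of 56 aligned bases (62.5%), more than the other pairs of these probes, which matched at 33.3% to 41.3%. The array design thus targets related stretches of the 2 receptors, and whether either probe also captures the other transcript was not tested. Both probes are dimmer than those that stand for Erbb2 and Erbb3 below, whose sequences were not compared.

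No member passed the test. With limma, 0 of the 20 member probes had an adjusted p under 0.05, against 2 of all 22731 tested probes (0.0088%). At an unadjusted p under 0.05, 6 of the 20 were lower with Sox9, where 8.05% of all tested probes were, and 0 were higher, where 9.5% of all were. The methods' t-test called 0 probes after adjustment. Read by its brightest probe, 6 of the 9 tested members were lower with Sox9 on both arrays (Areg, Errfi1, Hbegf, Btc, Ereg and Erbb3), against 33.8% of all tested genes, and 1 was higher on both (Egfr), where 33.8% of all were. The other two, Tgfa and Erbb2, had opposite signs on the arrays. The median log2 ratio of the 9 was -0.26, against 0.003 over all tested genes, with -0.26 on the genotype array and -0.37 on the treatment array. Of the 20 tested probes, 16 were lower on both arrays, against 32.6% of all tested probes. Another 2, both of Egfr, were higher, and the share of all tested probes that were higher was not counted. Egfr and Erbb3 supply 5 of the 20 probes each, and probes of 1 gene are not independent. The lowest means were those of Areg, Errfi1 and Hbegf.

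**Figure D1:**
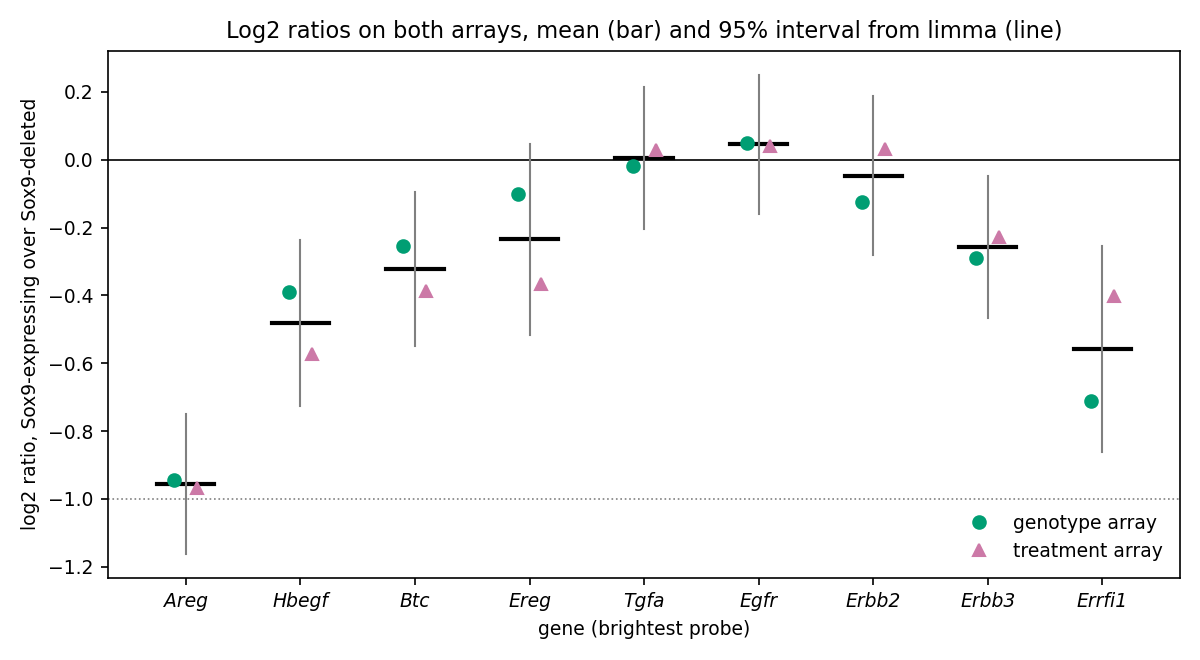
Log2 ratio (Sox9-expressing over Sox9-deleted, vertical axis) of the brightest probe of each tested member on the genotype array (circles) and the treatment array (triangles), with the mean of both (bar) and limma's 95% interval of the mean (line). The dotted line marks a 2-fold lower signal. Areg sits at -0.95 and -0.97, while Tgfa, Egfr and Erbb2 lie between -0.13 and 0.05.

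Areg, amphiregulin, a ligand of Egfr that epithelial and immune cells release, was the member with the largest ratio. Its brightness was 940.2 in wild-type cells given TAM and 967.8 in ER-Sox9flox/flox cells given vehicle, against 1811 and 1891 in the ER-Sox9flox/flox cells given TAM. Brightness here is the normalized fluorescence of 1 channel in scanner units, with an offset of 50, and can be compared between RNAs for 1 probe but not between probes. Both RNAs with Sox9 lay well below both RNAs without it, and the pairs did not overlap. The log2 ratio was -0.95 on the genotype array and -0.97 on the treatment array, a mean of -0.96 ± 0.015 (SD, n = 2 arrays), which is 1.94-fold lower with Sox9 (limma adjusted p = 0.088, 95% interval of the mean -1.16 to -0.75). From the lowest mean upwards, Areg ranked 65 of 15131 genes. It just missed the 2-fold rule on each array, which 0 members passed and 24 of all tested genes did on the lower side (0.159%). Areg has 1 probe with 1 spot, so no second sequence was at hand to check it.

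**Figure D2:**
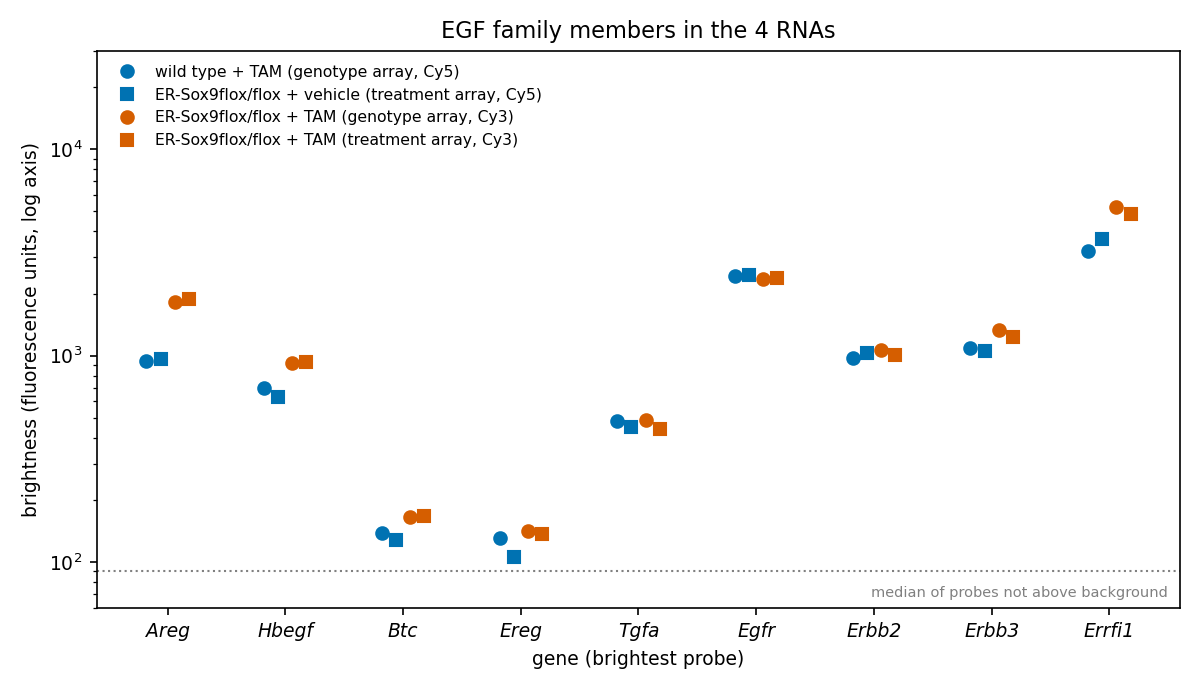
Brightness (fluorescence units, log axis) of the brightest probe of each tested member in the 4 RNAs, with Sox9-expressing RNAs in blue, Sox9-deleted RNAs in orange, circles for the genotype array and squares for the treatment array. The dotted line is the median of probes not above background in any RNA. Levels can be compared within a gene only, and for Areg the blue points lie at 940.2 and 967.8 and the orange points at 1811 and 1891.

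The genes nearest to Areg by the distance between their pairs of log2 ratios were Plin4 (0.01), a lipid droplet protein listed under an older name, Llgl2 (0.06), a cell polarity protein, and a transcript with no gene symbol in the files (0.08). This likeness rests on 2 values per gene, and 40 genes lay within a distance of 0.25.

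Hbegf, the heparin-binding ligand that binds Egfr and Erbb4, had a brightness of 698.8 in wild-type cells and 629.3 in vehicle-treated cells, against 916.1 and 936.4 in the Sox9-deleted RNAs. Again both RNAs with Sox9 were below both without it. The log2 ratios were -0.39 and -0.57, a mean of -0.48 ± 0.13 (SD, n = 2), or 1.40-fold lower with Sox9 (limma adjusted p = 0.15). Its single probe lies at chr18:36664738-36664797 (mm9).

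Btc, betacellulin, a further ligand of Egfr and Erbb4, was dim. Its brighter probe gave 138 and 127.5 with Sox9, and 164.6 and 166.7 without. The pairs did not overlap, and the log2 ratios were -0.25 and -0.39 (mean -0.32 ± 0.094, SD, n = 2, limma adjusted p = 0.20). For scale, the 16639 probes that were not well above background in any of the 4 RNAs had a median brightness of 90.2 to 90.7. The second Btc probe was among them, at 86.6 to 90.3. The offset pulls the ratios of such dim probes toward 0, so the size for Btc is uncertain. Its mean was -0.47 both with an offset of 10 and with no background subtraction, -0.82 with the scanner software's processed signals and -0.23 with median centring in place of loess.

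Ereg, epiregulin, was equally dim. The brighter of its 2 probes gave 131.4 in wild-type and 106.3 in vehicle-treated cells, against 140.9 and 137 in the Sox9-deleted RNAs. The annotation assigns it to AK019057 (chr5:91480914-91480973) and the other to NM_007950 (chr5:91521659-91521720). Whether both read the same transcript was not tested. The pairs were apart by a small margin. The log2 ratios were -0.10 and -0.37 for this probe and -0.12 and -0.31 for the other, so the treatment array showed the greater difference with both sequences (means -0.23 ± 0.19 and -0.22 ± 0.14, SD, n = 2, limma adjusted p = 0.33 and 0.32). The size is uncertain here too, since the mean of the brighter probe was -0.64 and that of the other -1.03 with the scanner software's processed signals, and -0.20 and -0.22 with median centring. Areg, Ereg and Btc are neighbors on mouse chromosome 5, with their probes between chr5:91480914 and chr5:91788090 in mm9.

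Tgfa, the ligand first found in transformed cells, showed no difference that the arrays could resolve. The brighter of its 2 probes, which was printed in 10 spots, gave 483.3 and 452.5 with Sox9 and 489.9 and 443.3 without. The 2 pairs overlapped. The mean log2 ratio was 0.005 ± 0.035 (SD, n = 2), with a 95% interval from limma of -0.20 to 0.21 (adjusted p = 0.98). The second Tgfa probe read -0.10 and -0.23 (limma adjusted p = 0.37), so the sign depends on the probe. Egf was not well above background in any RNA, with a brightness of 96.1 to 98.5 over its 10 spots in all 4 RNAs, and no ratio is given for it. Tgfa and Egf, like Egfr and Erbb2, stand in gene lists that the study drew from these same arrays, so their values here are not independent of those lists.

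**Figure D3:**
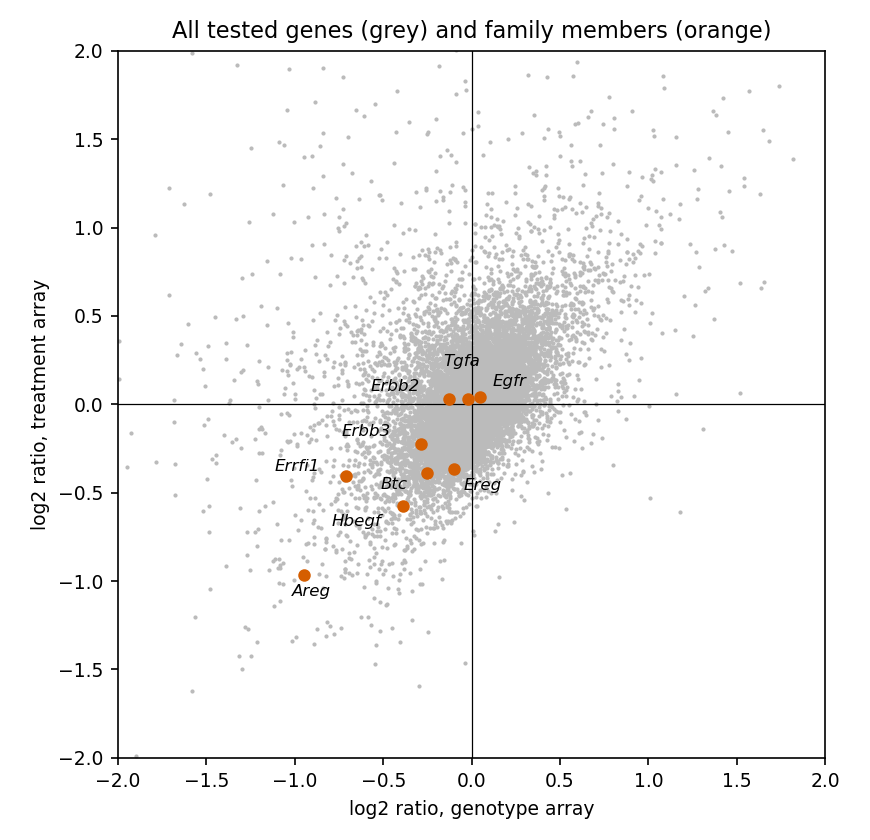
Log2 ratio on the genotype array (horizontal axis) against the treatment array (vertical axis) for all 15131 tested genes (grey) and the 9 tested members (orange). The axes stop at -2 and 2, which leaves out 54 genes. Areg lies at the lower left edge of the cloud, Errfi1, Hbegf, Btc, Ereg and Erbb3 in the same quadrant, and Tgfa, Erbb2 and Egfr near the center.

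Of the receptors, Egfr, the receptor of all 6 ligands, had 6 probes on the array. The brightest, printed in 10 spots near the 3′ end of NM_207655 (chr11:16813815-16813874, mm9), gave 2419 and 2457 with Sox9 and 2339 and 2387 without. The pairs lay apart, but by a small margin. The log2 ratios were 0.05 and 0.04 (mean 0.045 ± 0.005, SD, n = 2, limma adjusted p = 0.77, 95% interval -0.16 to 0.25). Of the 5 tested Egfr probes 2 were higher and 3 lower on both arrays, and the mean over all 5 was -0.09.

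The Egfr probes that the annotation assigns to NM_007912 and to NM_207655 did not all give the same ratio. Whether a probe captures only the transcript it is assigned to was not tested. On the genotype array the probe at chr11:16787385-16787444, assigned to NM_007912, read -0.47 as the mean of its spots, with single spots from -0.52 to -0.41, whereas all spots of the brightest NM_207655 probe were above 0. On the treatment array the same NM_007912 probe read -0.02, with spots from -0.13 to 0.06. Its brightness was 375.2 in wild-type cells, against 518.4, 486.2 and 493.3 in the 3 ER-Sox9flox/flox RNAs, so on this probe the wild-type RNA was dimmer than the other RNAs. The mean was -0.24 ± 0.32 (SD, n = 2, limma adjusted p = 0.42). The other NM_007912 probe, whose sequence is printed above, did not set the wild-type RNA apart. It gave 708.6 in wild-type cells against 819.1, 689.8 and 705.6, with log2 ratios of -0.21 and -0.03 (limma adjusted p = 0.51). The second NM_207655 probe (chr11:16812181-16812240) read -0.27 and -0.19 (limma adjusted p = 0.27). Probes assigned to the same transcript thus differed, for NM_007912 and for NM_207655. These are spots of 1 RNA pair per array, and whether the difference between the arrays goes with the transcript, the genotype or the hybridization cannot be told apart.

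**Figure D4:**
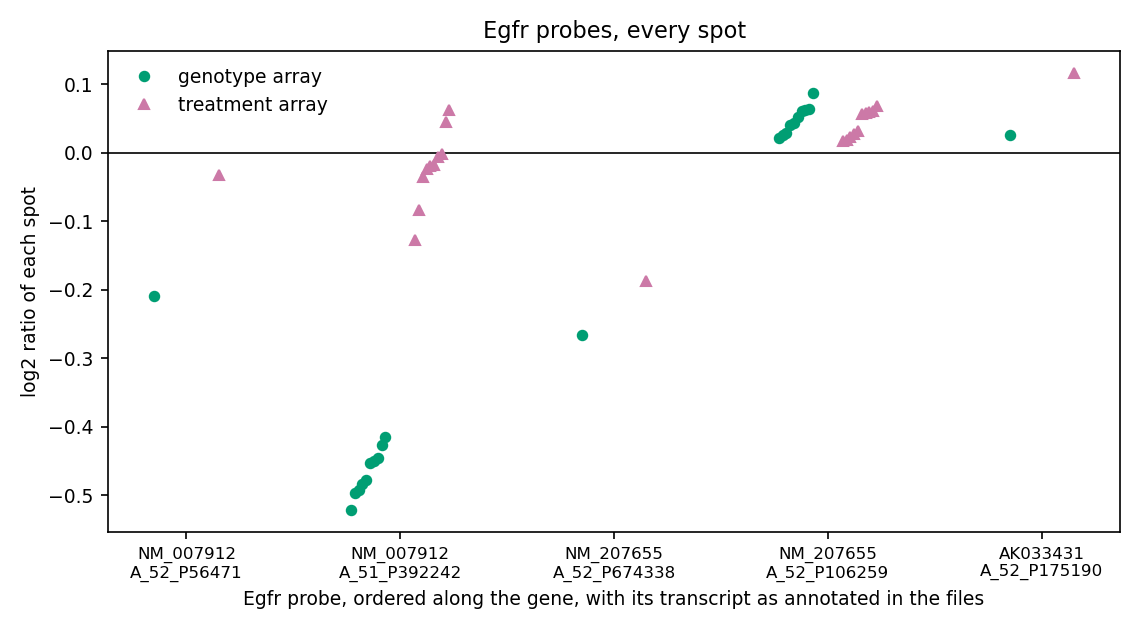
Log2 ratio (Sox9-expressing over Sox9-deleted) of every spot of the 5 tested Egfr probes, ordered along the gene, on the genotype array (circles) and the treatment array (triangles). The 10-spot probe A_51_P392242 lies from -0.52 to -0.41 on the genotype array and from -0.13 to 0.06 on the treatment array, and the 10-spot probe A_52_P106259 lies above 0 on both.

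Erbb2, the receptor with no known ligand of its own, gave 974.7 and 1033 with Sox9 and 1063 and 1012 without, on its brighter probe of 10 spots. The pairs overlapped. The log2 ratios were -0.13 and 0.03 (mean -0.048 ± 0.11, SD, n = 2, limma adjusted p = 0.79, 95% interval -0.28 to 0.19), and the second probe read -0.04 and -0.10.

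Erbb3, the receptor with a weak kinase that binds neuregulins, was below 0 on both arrays with all of its 5 probes. The brightest gave 1089 and 1054 with Sox9 and 1330 and 1233 without. The pairs did not overlap, and the log2 ratios were -0.29 and -0.23 (mean -0.26 ± 0.044, SD, n = 2, limma adjusted p = 0.23). The other 4 probes were dimmer, with means from -0.10 to -0.02, and 2 of them share 40 bases. With median centring in place of loess the sign for Erbb3 turned, to a mean of 0.04, where the median of all tested probes moved to 0.02 on the genotype and 0.38 on the treatment array.

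Errfi1, also called Mig6, is a cytoplasmic protein that Egfr signaling induces and that blocks the receptor's kinase. It gave 3223 in wild-type and 3676 in vehicle-treated cells, against 5278 and 4861 in the Sox9-deleted RNAs. Both RNAs with Sox9 were below both without. The log2 ratios were -0.71 and -0.40, a mean of -0.56 ± 0.22 (SD, n = 2), which is 1.47-fold lower with Sox9 (limma adjusted p = 0.16). It has 1 probe, at chr4:150242526-150242585 (mm9), and ranked 326 from the lowest mean. With median centring in place of loess its log2 ratios were -0.61 on the genotype array and 0.24 on the treatment array. Counted over the family, 6 of the 9 tested members had both Sox9-expressing RNAs dimmer than both Sox9-deleted RNAs, against 26.3% of all tested genes.

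The promoters of 7 of the 10 members were found in the RefSeq table (GRCm38.p6), as 9 windows of 250 bases before to 50 after a start. They were searched on both strands for the cAMP response element TGACGTCA, the AP-1 letters TGANTCA and the Sox-type letters ACAATG and ACAAAG. These letters are held by 1.79%, 7.81%, 12.6% and 18.7% of all 32851 windows. TGACGTCA was in the window of Areg and in 1 of the 2 windows of Errfi1, ACAAAG in the other Errfi1 window, and no other match was found in the 9. Ereg, Hbegf and Erbb3 had no window and were not searched. The 250 bases before the Areg start are shown because Areg had the largest ratio, from chr5:91139349-91139598 (GRCm38.p6, plus strand), with TGACGTCA in capitals, beginning 61 bases before the start.
Areg promoter: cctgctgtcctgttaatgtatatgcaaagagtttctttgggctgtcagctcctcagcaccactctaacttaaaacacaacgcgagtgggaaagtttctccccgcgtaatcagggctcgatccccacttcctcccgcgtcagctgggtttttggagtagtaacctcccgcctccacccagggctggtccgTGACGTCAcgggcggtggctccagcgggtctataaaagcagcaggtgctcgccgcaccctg
No binding was measured, so the match is a description of the letters and nothing more.

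The other genes of the pathway were read from lists by role. Of 63 listed genes 56 were tested, and the median log2 ratio was 0.002, close to that of all tested genes. Of the 56, 20 were higher and 22 lower on both arrays, where 33.8% of all tested genes were higher and 33.8% lower. With limma, 0 of the 56 had an adjusted p under 0.05. At an unadjusted p under 0.05, 12 were lower, where 9.07% of all tested genes were, and 7 higher, where 10.5% of all were.

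Among the other ligands, both that were tested were lower on both arrays. Epgn, epigen, whose gene lies beside Ereg, gave 166.2 and 121.9 with Sox9 and 232.8 and 268.2 without. The pairs did not overlap, and the log2 ratios were -0.49 and -1.14 (mean -0.81 ± 0.46, SD, n = 2, limma adjusted p = 0.19). Nrg1, a neuregulin that binds Erbb3 and Erbb4, had log2 ratios of -0.23 and -0.59 (mean -0.41 ± 0.26, SD, n = 2, limma adjusted p = 0.23). Its brightness did not separate the RNAs, at 550.3 and 364.3 with Sox9 and 645.7 and 549.8 without. Erbb4, the remaining receptor, was not tested because its probes were not well above background.

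**Figure D5:**
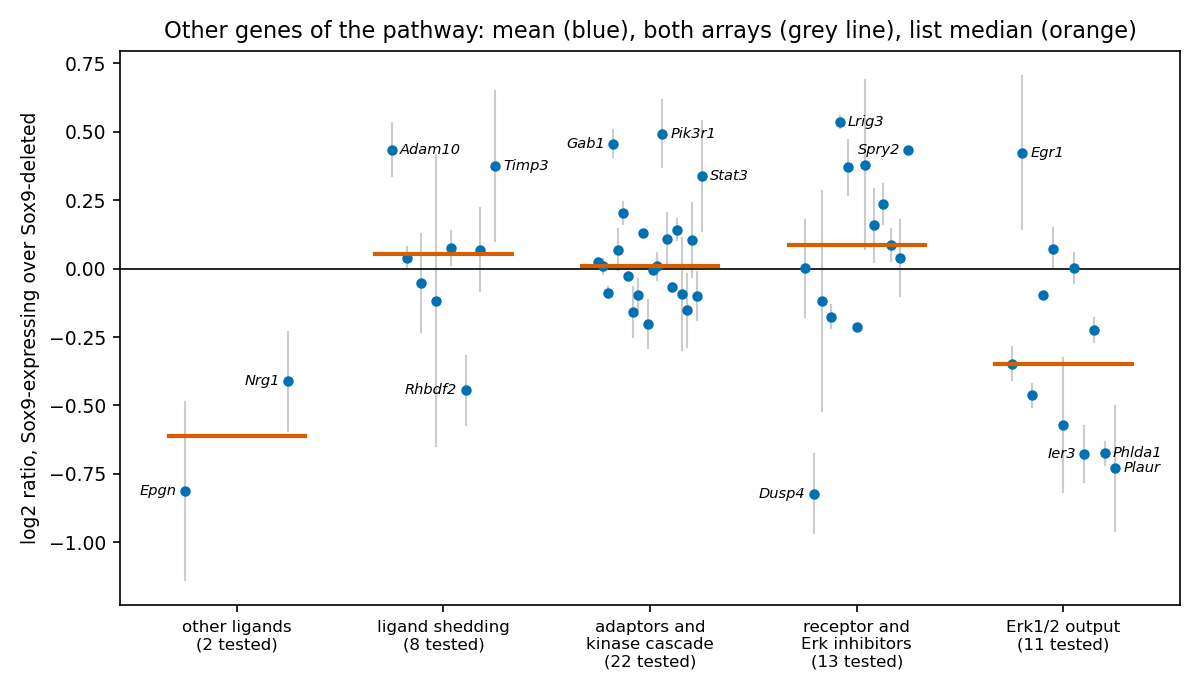
Mean log2 ratio (Sox9-expressing over Sox9-deleted, blue points) of the tested genes of 5 pathway lists, with a grey line joining the values of both arrays and an orange bar at the median of each list. The Erk1/2 output list has its median at -0.35, and the medians of ligand shedding, adaptors and kinase cascade, and inhibitors lie between 0.008 and 0.09.

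Of the 8 genes of ligand shedding, 4 were higher and 1 lower on both arrays, against 33.8% of all tested genes in each direction. Rhbdf2 (iRhom2), which carries the protease Adam17 to the cell surface, had a mean of -0.44 (limma adjusted p = 0.18). Adam10, a protease that releases Egf and Btc, had a mean of 0.43 (adjusted p = 0.17), and Timp3, which inhibits Adam17, one of 0.37 (adjusted p = 0.33). Adam17 itself, named for its role and after its values were seen, had opposite signs on the arrays, at -0.23 and 0.13.

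Of the 22 adaptors and kinases, 8 were higher and 8 lower on both arrays, against 33.8% of all tested genes in each direction. Their median was 0.008. The 3 with the largest means were Pik3r1, a subunit of phosphoinositide 3-kinase (0.49, limma adjusted p = 0.16), the docking protein Gab1 (0.46, adjusted p = 0.14) and the transcription factor Stat3 (0.34, adjusted p = 0.30).

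Of the 13 tested inhibitors of the receptors and of Erk1/2, 7 were higher and 3 lower on both arrays, with a median of 0.09. Of all tested genes 33.8% were higher and 33.8% lower. Dusp4, a phosphatase that acts on Erk1/2 in the nucleus, gave 660.1 and 572.5 with Sox9 and 1055 and 1119 without. The pairs did not overlap (log2 ratios -0.68 and -0.97, mean -0.82 ± 0.21, SD, n = 2, limma adjusted p = 0.11). Lrig3 and Spry2, which restrain receptor signaling, had positive means of 0.54 and 0.43 (adjusted p = 0.12 and 0.14), so the inhibitors did not share one direction with Errfi1.

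Genes that Erk1/2 signaling is known to induce were read from a list of 11. This list holds none of the 13 tested inhibitors above, several of which Erk1/2 also induces. Of those 13, 7 were higher and 3 lower on both arrays, so the list does not stand for all Erk1/2-induced genes. With Sox9, 8 were lower on both arrays, where 33.8% of all tested genes were, and 1, Egr1, was higher, where 33.8% of all were. The median was -0.35, with -0.29 on the genotype array and -0.41 on the treatment array. Plaur, the urokinase receptor, had log2 ratios of -0.50 and -0.96 (mean -0.73 ± 0.32, SD, n = 2, limma adjusted p = 0.16). Ier3, an immediate early gene, had a mean of -0.68 (adjusted p = 0.12), and so did Phlda1 (adjusted p = 0.10). Egr1, named because it was the exception and so chosen after its values were seen, read 0.70 and 0.14. With median centring 5 of the 11 were lower on both arrays and the list's median was -0.003.

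Markers of cell types also differed between the RNAs. The probes of Sox9 itself, 3 in number, gave a mixed check of the labels. Positive ratios on each array were read by 2 (means 2.53 and 1.22, limma adjusted p = 0.059 and 0.082). The one nearest the 3′ end had a negative one (-1.11, limma adjusted p = 0.088). It was printed in 10 spots, of which 8 were used on the genotype array and 6 on the treatment array. This probe was dim, at 106 (wild type, not well above background) and 96.35 (vehicle) with Sox9, and 211.5 and 225.1 without. On the brightest probe the Sox9-deleted RNAs still gave 252.6 and 232.2, against 1634 and 1198 with Sox9. Each of the 7 basal epithelium markers had positive ratios on the 2 arrays, where 33.8% of all tested genes did (median 1.60, 0 of 7 with a limma adjusted p under 0.05). Their summed brightness was 381000 and 328900 with Sox9 against 119700 and 118100 without, mostly from the bright probes of Krt5, Krt14 and Krt15. Itgb4 differed little on the treatment array, at 9208 with Sox9 and 8845 without. The 8 stroma markers, from collagens to Pdgfrb, were above background in all 4 RNAs and had opposite directions on the arrays, with medians of -0.69 and 0.67 and summed brightness of 29320 (wild type), 50100, 82730 (vehicle) and 45160. Of 6 immune markers 4, and of 4 endothelium markers 2, were not above background in any RNA. Immune markers summed to 820.3 and 808 with Sox9 and 1019 and 1040 without, a difference that lay in Cd68 (333.1 and 318.5 against 535.9 and 544.6), while Csf1r gave 119.8 and 112.5 against 117.3 and 121.9. Of the 5 tested luminal markers 2 were higher and 2 lower on both arrays, against 33.8% of all tested genes in each direction (median -0.25). Luminal markers summed to 209700 (wild type) and 180000 (vehicle) with Sox9, and 221100 and 262100 without. Krt8 and Krt18 read -0.74 and -1.01 on the treatment array, but 0.01 and -0.28 on the genotype array. The 8 suprabasal and squamous markers summed to 22310 to 25840 over the RNAs. Of them 4 were higher and 3 lower on both arrays, against 33.8% of all tested genes in each direction (median 0.39). Their means ran from 1.96 for Krt10 to -1.72 for Ivl, which are keratin and envelope proteins of stratified epithelium. In such bulk RNA, fewer cells of a type and less RNA per cell cannot be told apart. The part of these shifts in the ratios of the EGF family was not tested.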

How the data were processed

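The 4 RNAs were hybridized as pairs on 2 arrays, and titles, genotypes, treatments and dyes of the labels assigned them. The authors deposited, per the file headers (Agilent Feature Extraction 10.5.1.1), uncorrected mean and local background intensities of the spots in each channel, together with software-processed intensities and their log10 ratio of Cy5 over Cy3. They also deposited a table whose values behave as log2 ratios of Cy5 over Cy3; its making is not given in the sources used here, beyond limma named in the processing notes. Here the mean intensities were background-corrected (normexp, offset 50), control spots and spots marked as outliers (126 and 130) were dropped, ratios were loess-normalized within arrays, and spots of a probe were averaged. The offset understates ratios of dim probes. Brightness per RNA used Aquantile scaling between arrays after loess. A probe was tested if most of its spots were well above background on both arrays in the same dye. The mean of both arrays was tested against 0 with limma 3.58.1 (R 4.3.3; lmFit, eBayes, 2-sided, Benjamini-Hochberg over all tested probes), with 1 residual degree of freedom and 2.8 prior ones. The code was tested on simulated data. The brightest probe stood for a gene. In each channel 53.9% to 56.2% of probes were above background, and 0 spots were saturated. Precision is limited by the number of arrays.

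The genes named were all members, Sox9, from each pathway list the 3 with the largest mean of 1 sign on both arrays, and the 3 nearest to Areg. Erbb4, Adam17, Egr1 and single marker genes were named outside this rule, after their values were seen. Members, lists and tests were chosen with earlier results of these data known. Alternatives were another offset (10), no background subtraction, median centring, scaling between arrays, the processed intensities, the deposited table, other filters, the mean over probes, leaving out each array, and the t-test named in the methods. Sequences came from the array files and RefSeq, and no protein sequences were used. Figures used Python and matplotlib.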

Additional observations from a re-analysis of the deposited data

Results flagged for a closer look

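Erbb2 and Tgfa had opposite signs on the 2 arrays, the genotype and the treatment comparison. For Erbb2 the log2 ratio was -0.13 on the genotype array and 0.03 on the treatment array, a difference of 0.156. For Tgfa it was -0.02 and 0.03, a difference of 0.0492. Each comparison has 1 array, so neither difference was tested.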

How the results depend on the processing

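Over the 10 alternatives with both arrays, the means of Areg (-1.01 to -0.65), Hbegf (-0.58 to -0.20), Btc, Ereg and Errfi1 (-0.63 to -0.18) stayed below 0. On the treatment array alone, median centring gave 0.24 for Errfi1 and -0.05 for Hbegf. In any of the alternatives, 0 members reached an adjusted p under 0.05 (limma, lowest 0.063, Areg). Members at least 2-fold lower on both arrays numbered 1 in place of 0 with no background subtraction and 1 with the scanner software's signals. Members lower on both arrays numbered 6, but 4 with median centring (Areg, Hbegf, Btc and Ereg). They numbered 7 with no background subtraction and in the deposited table, 8 with scanner signals and 9 with the mean over probes. The matching shares of all tested genes were not counted for the alternatives. Median centring also moved the median of all tested probes to 0.38 on the treatment array. Members higher on both arrays numbered 2 with median centring and 0 with the mean over probes, in place of 1, and, read from 1 array, 1 without the treatment array and 3 without the genotype array. Signs turned for Tgfa (-0.0168 with offset 10, -0.0222 with no background subtraction, -0.00236 with scaling, -0.0298 with scanner signals, -0.00991 in the deposited table, -0.0812 as the mean over probes, and -0.0195 to 0.0297 on a single array), Egfr (-0.0949 as the mean over probes), Erbb2 (0.245 with median centring, -0.125 to 0.0303 on a single array) and Erbb3 (0.0403 with median centring). Over all probes, those with an adjusted p under 0.05 numbered 2, but 0 with offset 10, no background subtraction, scaling, scanner signals or the methods' t-test, 522 with median centring, 68 in the deposited table and 21 with no filter. Probes at least 2-fold different on both arrays numbered 95, but 148 with no background subtraction, 600 with scanner signals, 147 in the deposited table, and 298 to 382 on a single array. Of these, 69.5% were higher with Sox9, against 91.8% with median centring, 48.3% with scanner signals and 35.9% to 80.6% on a single array. The causes were not tested.

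Each ratio already pairs the RNAs of 1 array, and a replicate block across the comparisons could not be fitted because each has 1 array. Signal over background limits Egf, Btc and Ereg, and leaving out an array leaves no test.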
